A study of Mus musculus with 12 samples.

Results

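Liver tumors that arose in mice producing active telomerase reverse transcriptase from the p21 promoter were compared with liver tumors from mice producing a catalytically inactive form of the same protein, using 1 tumor of each histological class on each side. The active side held the carcinoma T-HCC941, in which the study found an Egfr mutation, and the adenoma T-HCA992, without an Egfr, Hras or Ctnnb1 mutation (p21+/Tert mice). The inactive side held the carcinoma TCi-HCC981, with an Hras mutation, and the adenoma TCi-HCA984, again without any of these (p21+/TertCi mice). Mutations in other genes were reported in all 4. None of the 4 tumors carried a Ctnnb1 mutation, and the other 2 p21+/Tert tumors of the series, T-HCC662 and T-HCC663, were set aside because they did. The comparison therefore used 4 of the 12 RNA-seq libraries, with 2 tumors a group; each tumor came from a different mouse. The non-tumor liver of the same 4 mice was also sequenced. The other 4 libraries were the 2 Ctnnb1-mutated tumors and 2 further p21+/Tert livers.

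All animals were aged mice on standard diet, on a C57BL/6J N background, and tumors in this model appear late in life, after about 18 months. Each was heterozygous for a cassette inserted into Cdkn1a, so that the p21 promoter drove Tert and mCherry from 1 allele, and each kept its endogenous Tert genes. No sample without a Tert cassette was among the 12. TertCi differs from Tert by a change in the catalytic site. Within each group the tumors shared a genotype but not a class, and each class was present once per genotype, so the difference between 2 single carcinomas or 2 single adenomas has no replicate of its own. The study corrected its own comparison for sequencing run, but the run of each library is not given in the sources used here, so run and genotype cannot be told apart.

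Telomerase adds telomere repeats to chromosome ends. TERT is its reverse transcriptase, TERC the RNA that holds the template, and dyskerin, GAR1, NHP2 and NOP10 the proteins that bind and stabilise that RNA. Adult hepatocytes have little telomerase, and reactivation of TERT is among the commonest events in liver carcinoma. The p21 protein, encoded by Cdkn1a, is a cyclin-dependent kinase inhibitor that p53 induces after DNA damage and short telomeres, so that its promoter is active in stressed and senescent cells. A catalytically inactive TERT can still bind its partners but adds no repeats.

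Counts assigned to genes ran from 17492956 to 26170661 per library in the 4 tumors, and the 10 most abundant genes took 19.6 to 21.7% of them. Levels are given as CPM, counts scaled to a library of 1000000, after TMM scaling, a correction for library composition. Where 4 levels follow each other, the p21+/Tert carcinoma comes first, then the p21+/Tert adenoma, the p21+/TertCi carcinoma and the p21+/TertCi adenoma, and livers are given in the order of the same mice. Differences are log2 fold changes of p21+/Tert over p21+/TertCi tumors from edgeR's quasi-likelihood fit, with their standard error (SE). Genes are called at a Benjamini-Hochberg adjusted p under 0.05, and a list of genes is described by how many of its members had no overlap between the groups.

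All 4 tumors expressed hepatocyte genes. The summed level of the 8 hepatocyte markers was 124133 to 139880 CPM in the tumors and 53818 to 73830 CPM in the 4 livers. Markers of other cells differed most in the carcinoma TCi-HCC981. Its 12 macrophage markers summed to 1083 CPM, against 435 in T-HCC941, 282 in T-HCA992 and 192 in TCi-HCA984, and 11 of the 12 had their highest tumor level in it. The liver of the same mouse was also the highest of the 4 livers, with 1435 CPM against 166 to 373. The 12 endothelial markers summed to 264, 356, 494 and 343 CPM. Of these, 6 were lower in both p21+/Tert tumors than in either p21+/TertCi tumor (against 16.0% of all genes tested). With raw library totals in place of TMM, 1 was (against 11.0%). No macrophage or endothelial marker was at 0 in all 4 tumors. T cell markers were highest in T-HCC941, at 43.3 CPM against 7.67 to 24.0 in the other 3. Stellate cell and fibroblast markers were highest in T-HCA992, at 451 CPM against 202 to 252. Neutrophil markers summed to 13.4 CPM or less in every tumor, with 4 of 5 lower in both p21+/Tert tumors, while NK, B cell and dendritic markers were highest in TCi-HCC981 (25.2, 34.4 and 56.8 CPM). In bulk RNA, fewer cells of a type and less RNA per cell cannot be told apart.

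Tert itself was present in every library and did not separate the groups. Its level was 9.39 CPM in T-HCC941, 26.1 in T-HCA992, 15.8 in TCi-HCC981 and 16.9 in TCi-HCA984. The 2 p21+/Tert tumors were thus the lowest and the highest of the 4, and the log2 difference was 0.12 (SE 0.44, edgeR adjusted p = 0.967). It changed sign when tumor class was added to the model (-0.058) and when T-HCA992 was left out (-0.80). In the livers Tert was at 10.5, 14.4, 11.0 and 12.6 CPM. Reads of the endogenous gene, of the active cassette and of the inactive cassette are counted under 1 name, so these levels do not check the genotype. Cdkn1a, the gene that hosts the cassette, was at 81.0, 74.2, 72.8 and 52.8 CPM in the tumors and at 4.09, 28.8, 7.18 and 51.1 CPM in the livers; the tumor difference was 0.31 (edgeR adjusted p = 0.966).

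Of 15182 genes tested, 1 was called. It was lower with active Tert (0.00659% of genes tested), and no gene was called higher (0.0%). At an unadjusted p under 0.05 there were 702 genes higher (4.62%) and 534 lower (3.52%). DESeq2, run as an alternative, called 78 genes higher (0.504%) and 69 lower (0.446%) of the 15487 it gave an adjusted p. Without a threshold, 2787 genes (18.4%) were higher in both p21+/Tert tumors than in either p21+/TertCi tumor, and 2427 (16.0%) were lower in both. The median log2 difference over all genes tested was -0.01. Counts and medians of lists are to be read against those values. With raw library totals in place of TMM, 3774 genes were higher and 1663 lower without overlap, since that scaling moves the difference of every gene up by 0.12 on the log2 scale. With 2 tumors a group such a pattern is the most a rank can show; the smallest two-sided exact permutation p is 0.333.

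The called gene was Rps14, a protein of the small ribosomal subunit (chr18:60747098-60778546 in GRCm38). It was at 20.2 CPM in T-HCC941 and 19.6 in T-HCA992, and at 79.5 in TCi-HCC981 and 69.2 in TCi-HCA984. Both p21+/Tert tumors were far below both p21+/TertCi tumors, with a spread within each group much smaller than the gap. The log2 difference was -1.90 (SE 0.20; edgeR adjusted p = 0.0279), with -1.93 in the carcinoma pair and -1.77 in the adenoma pair. The call depended on how the spread between tumors was estimated. The adjusted p was 0.902 when the 4 tumors were fitted alone, 0.626 with all 6 tumors and no livers, 0.0615 with tumor class in the model, and 0.0699 to 0.227 when 1 tumor was left out, while the log2 difference stayed between -2.00 and -1.83 without any 1 tumor. In the livers Rps14 was at 30.6, 29.3, 46.7 and 39.2 CPM, again without overlap but closer. The 2 Ctnnb1-mutated p21+/Tert tumors had 42.0 and 34.8 CPM, between the groups. Rps14 has 2 near-identical genes elsewhere in the genome, and reads shared with them may have been counted with either or discarded.

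**Figure D1:**
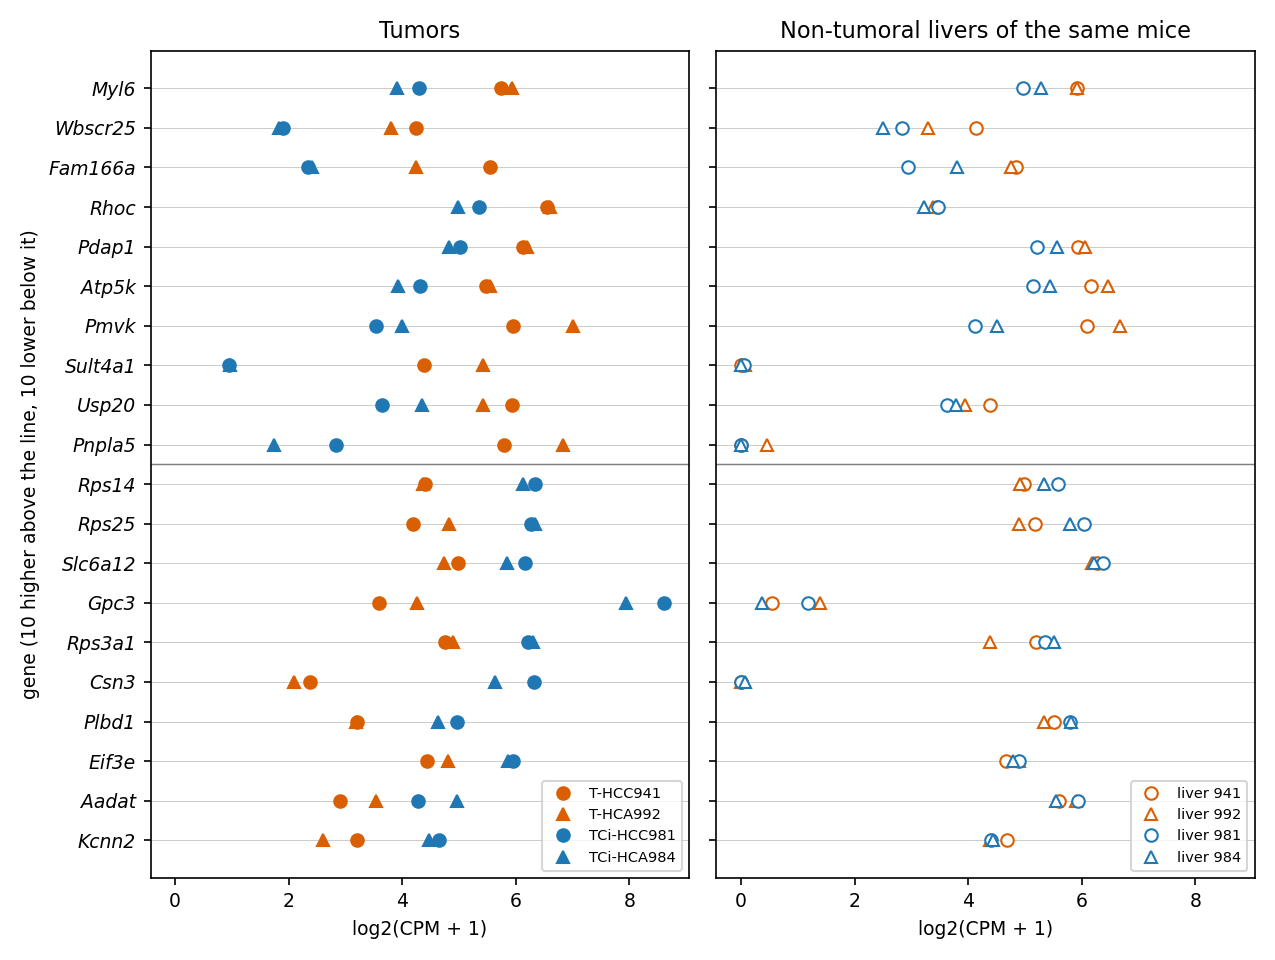
Level of the 20 named genes in each library, as log2(CPM + 1) on the horizontal axis, with tumors in the left panel and the livers of the same 4 mice in the right panel; each point is 1 library and color marks genotype. In the tumor panel the groups do not overlap for any of the 20 genes, while Sult4a1, Pnpla5, Gpc3 and Csn3 sit near 0 in the livers.

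Ribosomal protein genes were then read as a group, which was chosen after Rps14 and its neighbors in the ranking had been seen. Of 84 cytosolic ribosomal protein genes tested, 37 were lower in both p21+/Tert tumors (against 16.0% of all genes) and 4 were higher. At an unadjusted edgeR p under 0.05, 20 were lower and 2 higher. The median log2 difference over the 84 was -0.43, with -0.44 in the carcinoma pair and -0.30 in the adenoma pair, and it stayed between -0.54 and -0.26 without any 1 tumor. T-HCA992 was the lowest tumor for 47 of the 84, against 22.7% of all genes tested. TCi-HCC981 was the highest for 47, against 26.3%. In the livers the median over the 84 was -0.12. Their summed level was 5804, 4755, 7040 and 5789 CPM, so that the sum in T-HCC941 was no lower than in TCi-HCA984. The members therefore differed unequally. Rps25 (small subunit) was at 17.2, 27.4, 76.1 and 79.7 CPM, a log2 difference of -1.80 (SE 0.25; edgeR adjusted p = 0.0936). Rps3a1 (small subunit) was at 25.9, 28.8, 72.8 and 77.6 CPM (-1.46, SE 0.26). In the opposite direction, Rpl36al was at 214, 188, 122 and 105 CPM (0.83). Eif3e, a subunit of the translation initiation factor that works with the small subunit, was at 20.6, 27.1, 60.7 and 57.2 CPM (-1.31, SE 0.27), with 24.5 to 28.9 CPM in the 4 livers. Rps25 has 10 near-identical genes in the genome, Rps3a1 has 6 and Eif3e has 2, so their levels are uncertain to the extent that reads were shared. Rps25 also overlaps Ccdc84 and Trappc4.

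The 10 genes named as higher with active Tert were those of lowest p among genes without overlap; none passed the threshold in edgeR. Myl6, a light chain of non-muscle and smooth-muscle myosin (chr10:128490860-128494145), was at 52.3, 59.7, 18.6 and 14.1 CPM, a log2 difference of 1.77 (SE 0.24; edgeR adjusted p = 0.0936). It was also higher in the livers of the same p21+/Tert mice, at 59.1 and 59.5 CPM against 30.3 and 38.1, and it has 5 near-identical genes. Rhoc, a small GTPase that acts on the actin cytoskeleton (chr3:104788375-104794459), was at 92.8, 96.1, 39.9 and 30.6 CPM (1.42, SE 0.22; edgeR adjusted p = 0.168). In contrast to Myl6, its liver levels were alike, between 8.38 and 10.0 CPM. The Ctnnb1-mutated p21+/Tert tumors T-HCC662 and T-HCC663 had Rhoc at 35.9 and 47.7 CPM, near the p21+/TertCi tumors. Usp20, a deubiquitinase (chr2:30982279-31023586), was at 60.4, 41.8, 11.5 and 19.3 CPM (1.73, SE 0.31). Pdap1, a phosphoprotein first described as a partner of PDGF (chr5:145128769-145140238), was at 68.7, 72.7, 31.2 and 27.4 CPM (1.27, SE 0.21). Atp5k, subunit e of the mitochondrial ATP synthase (chr5:108433244-108434448), was at 43.6, 45.8, 19 and 14.3 CPM (1.43, SE 0.24), with liver levels of 70.5, 87.4, 34.4 and 42.4 CPM that separated the genotypes as well. Wbscr25 (chr5:134987433-135001350) was at 18.0, 13.0, 2.72 and 2.56 CPM, and Fam166a (chr2:25218745-25222280) at 45.5, 18.0, 4.06 and 4.32 CPM. Both of these overlap another gene, Cldn3 and Tubb4b respectively. Pdap1 likewise overlaps Arpc1b, and it has 1 near-identical gene. Reads in such overlaps cannot be assigned without knowing whether strand was used.

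The 3 remaining genes of the 10 included a kinase of the mevalonate pathway and a lipase. Pmvk, phosphomevalonate kinase of the mevalonate pathway (chr3:89454541-89469013), was at 61, 127, 10.6 and 14.9 CPM (2.88, SE 0.49; edgeR adjusted p = 0.185). Its liver levels were 67.6, 102, 16.4 and 21.7 CPM, so the tumors and the livers of the p21+/Tert mice were both several times higher. Sult4a1, a cytosolic sulfotransferase best known from brain (chr15:84076097-84105754), was at 19.8, 41.8, 0.925 and 0.965 CPM (5.02, SE 0.82; edgeR adjusted p = 0.185; DESeq2 adjusted p = 3.26e-10). Pnpla5, a lipase of the patatin-like family (chr15:84112356-84123175), was at 54.6, 113, 6.11 and 2.33 CPM (4.31, SE 0.76; edgeR adjusted p = 0.229). Both were near 0 in the livers of the 4 mice, where Sult4a1 reached 0.0537 CPM at most and Pnpla5 0.376. They were also at 0 to 0.0451 CPM in the 2 Ctnnb1-mutated p21+/Tert tumors, so the level was not shared by all tumors with active Tert. For 7 of the 10 genes named as higher, both Ctnnb1-mutated tumors lay above both p21+/TertCi tumors.

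Among the 10 genes named as lower, the widest gaps were in genes that were near 0 in liver. Gpc3, glypican 3, an oncofetal surface proteoglycan of hepatocellular carcinoma (chrX:52272426-52613950), was at 11.0 CPM in T-HCC941, 18.1 in T-HCA992, 391 in TCi-HCC981 and 245 in TCi-HCA984. Both p21+/TertCi tumors were high, the adenoma included, and the log2 difference was -4.45 (SE 0.77; edgeR adjusted p = 0.185). The 4 livers had 0.291 to 1.61 CPM. Csn3, the milk protein kappa-casein (chr5:87925579-87932665), was at 4.21, 3.26, 78.4 and 48.4 CPM (-4.09, SE 0.62; edgeR adjusted p = 0.229) and at 0 to 0.0485 CPM in the livers. The others were genes of normal liver. Slc6a12, a transporter of betaine and GABA (chr6:121343076-121365775), was at 30.4, 25.5, 70.4 and 56.5 CPM (-1.18, SE 0.20), with 71.7 to 82.1 CPM in all 4 livers. Plbd1, a phospholipase B-like protein (chr6:136612070-136661928), was at 8.21, 8.13, 30.4 and 23.6 CPM (-1.72, SE 0.33), against 39.2 to 55.2 in the livers. Aadat, an aminotransferase of kynurenine and lysine breakdown (chr8:60505932-60545677), was at 6.48, 10.6, 18.5 and 30.1 CPM (-1.50, SE 0.31), against 46.0 to 60.4 in the livers. Kcnn2, a calcium-activated potassium channel (chr18:45268860-45686024), was at 8.26, 5.09, 24.0 and 21.2 CPM (-1.76, SE 0.37), against 19.9 to 24.6 in the livers. For Slc6a12, Plbd1 and Aadat all 4 tumors lay below all 4 livers, and T-HCC941 and T-HCA992 lay lowest. The further p21+/Tert livers of the series had Plbd1 at only 25.2 and 22.3 CPM, below TCi-HCC981. Their Slc6a12 and Aadat levels were above those of all 4 tumors. The p21+/TertCi tumors had Kcnn2 at the level of the livers of these mice. In the further p21+/Tert livers it was higher, at 36.8 and 40.7 CPM. In the Ctnnb1-mutated p21+/Tert tumors T-HCC662 and T-HCC663, Slc6a12 was at 58.4 and 49.3 CPM. Plbd1 was at 75.7 and 63.9 CPM there, and Aadat at 21.8 and 18.2 CPM. For 7 of the 10 genes named as lower, both Ctnnb1-mutated tumors lay below both p21+/TertCi tumors.

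Genes of fatty acid synthesis had the largest median difference of the pathway lists in the fit of all 4 tumors, though not in the adenoma pair, where G2 and M phase genes had 2.48. This pathway builds fatty acids from citrate through ACLY, the acetyl-CoA carboxylase ACACA and FASN, and then elongates and desaturates them. Of its 12 listed genes, 11 were higher in both p21+/Tert tumors than in either p21+/TertCi tumor (against 18.4% of all genes tested) and none was lower. At an unadjusted edgeR p under 0.05 there were 9, and none passed after adjustment. Acaca was at 115, 224, 51.4 and 70.3 CPM, a log2 difference of 1.48 (SE 0.41, edgeR adjusted p = 0.406). Pnpla3, a lipid droplet protein induced with lipogenesis, was at 75.7, 169, 20.2 and 10.4 CPM (3.00, SE 0.93). Elovl6, the elongase of C16 chains, was at 75.7, 482, 27.1 and 62.7 CPM (2.64, SE 0.90), and Acly at 179, 1266, 127 and 129 CPM (2.50, SE 0.93). In each of these the adenoma T-HCA992 was the highest. Fasn was at 676, 3103, 393 and 308 CPM (2.43, SE 0.95), and Scd1, the main desaturase, at 10568, 23423, 2914 and 7326 CPM (1.73, SE 0.71). Dgat2, which makes triglyceride, was the 1 gene that overlapped, at 340, 465, 399 and 568 CPM.

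The size of the lipogenic difference rested in part on T-HCA992. The median log2 difference over the 12 genes was 2.28, with 1.22 in the carcinoma pair and 2.45 in the adenoma pair, and it was 0.85 without T-HCA992 and at most 2.89 when any other tumor was left out. For Fasn alone the value without T-HCA992 was 0.95. T-HCA992 had the highest tumor level of 11 of the 12 genes, against 24.5% of all genes tested. The liver of the same mouse also had the highest Fasn of the 4 livers, at 289, 1796, 520 and 251 CPM, and the liver median over the list was 0.79 with 3 of 12 without overlap. Pnpla3, also highest in that liver, was at 1.52, 4.88, 1.85 and 0.242 CPM in the livers, below all 4 tumors. In the Ctnnb1-mutated tumors T-HCC662 and T-HCC663, which also carried active Tert, Acly was at 136 and 44.4 CPM and Elovl6 at 213 and 61.2 CPM, within or below the range of the 4 tumors.

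Cholesterol genes, which SREBP2 controls as SREBP1 controls the fatty acid genes, went the same way with a smaller difference. Of 20 genes, 14 were higher in both p21+/Tert tumors and none lower, against 18.4% and 16.0% of all genes tested. The median log2 difference was 0.84 (0.43 in the carcinoma pair, 1.36 in the adenoma pair, 0.50 to 1.05 without any 1 tumor). In the livers the median was 0.70, with 7 of 20 higher without overlap. At an unadjusted edgeR p under 0.05 there were 5 genes. Lss, lanosterol synthase, was at 143, 390, 79.6 and 79.0 CPM (1.75, edgeR adjusted p = 0.546), and Mvd, which follows Pmvk in the mevalonate pathway, at 44.3, 85.5, 21.3 and 20.1 CPM (1.65, edgeR adjusted p = 0.592). Insig1, which holds SREBP in the endoplasmic reticulum when sterol is plentiful, was at 389, 882, 197 and 318 CPM (1.30, edgeR adjusted p = 0.603). T-HCA992 was the highest tumor for 18 of the 20. By contrast, fatty acid oxidation and ketogenesis genes had 2 of 17 higher without overlap and none lower (median -0.19), and 16 of the 17 were lowest in the carcinoma TCi-HCC981.

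**Figure D2:**
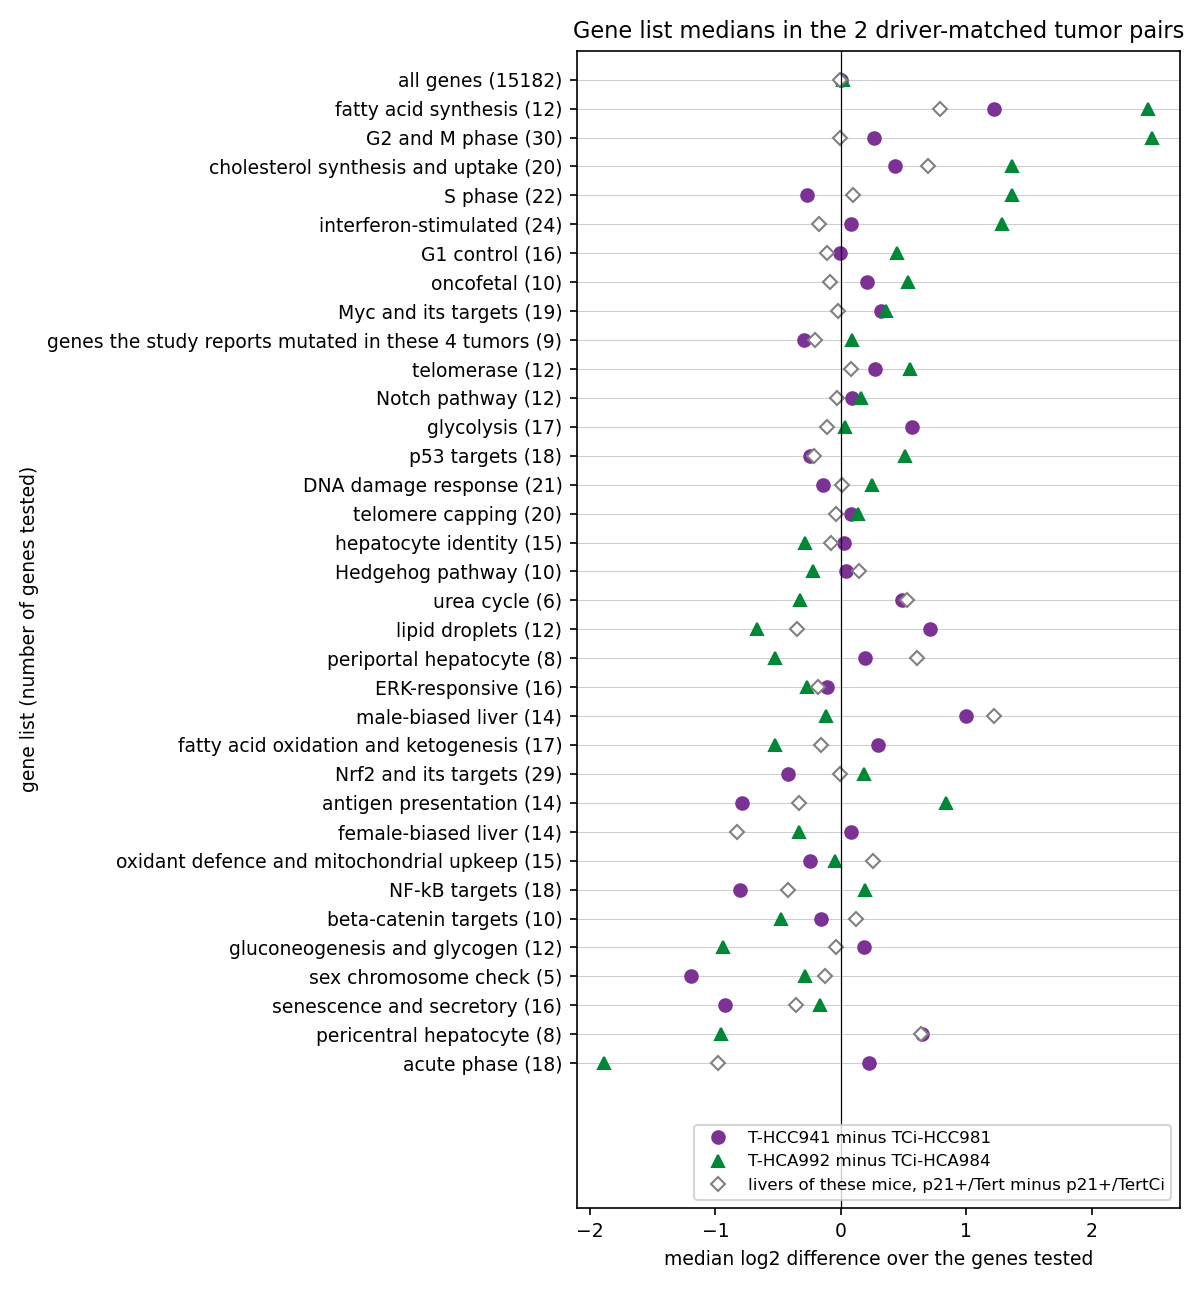
Median log2(CPM + 1) difference, p21+/Tert minus p21+/TertCi, over the tested genes of each pathway list: circles, carcinoma T-HCC941 minus TCi-HCC981; triangles, adenoma T-HCA992 minus TCi-HCA984; diamonds, mean of the 2 livers a genotype. Fatty acid synthesis is high in both tumor pairs (1.22 and 2.45), whereas G2 and M phase is near 0 in the carcinoma pair (0.27) and high in the adenoma pair (2.48).

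Genes of the G2 and M phases were higher with active Tert, but nearly all of the difference lay between the adenomas. These genes encode the kinases, cyclins and spindle proteins of mitosis, and in liver they track cycling cells. Of 30 genes, 22 were higher in both p21+/Tert tumors than in either p21+/TertCi tumor (against 18.4% of all genes tested). None was lower, and 5 had an unadjusted edgeR p under 0.05. Their summed level was 218 CPM in T-HCC941, 379 in T-HCA992, 151 in TCi-HCC981 and 40.7 in TCi-HCA984. T-HCA992 was the highest in 29 of the 30 genes and TCi-HCA984 the lowest in all 30, so that both carcinomas lay between them in 29. The median log2 difference was 0.27 in the carcinoma pair and 2.48 in the adenoma pair. It was 1.75 in the fit of all 4 tumors and ran from 0.92 to 3.67 when 1 tumor was left out, the upper value without TCi-HCC981. In the livers the median was -0.01, and the sums were 43.9, 55.1, 84.3 and 24.6 CPM.

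Aurka, the mitotic kinase aurora A, had the lowest p of the list. It was at 13.1, 17.4, 7.50 and 6.08 CPM (1.16, SE 0.29, edgeR adjusted p = 0.387; DESeq2 adjusted p = 0.0238). The carcinomas and the adenomas were both apart for this gene. Ccna2, cyclin A2, was at 18.4, 28.4, 13.1 and 4.77 CPM (1.39), and Plk1, polo-like kinase, at 5.34, 13.8, 3.03 and 0.568 CPM (2.41). Ect2, an exchange factor for small GTPases in cytokinesis, was at 4.80, 10.7, 4.01 and 1.70 CPM (1.44). Mki67, the proliferation antigen, was at 29.4, 49.2, 17.9 and 3.07 CPM (1.91, SE 1.11, edgeR adjusted p = 0.699). The 2 Ctnnb1-mutated p21+/Tert tumors had Mki67 at 54.3 and 53.5 CPM, above all 4. By Ki67 protein staining, the study reported strong labeling in T-HCC941, high levels in TCi-HCC981, and minimal labeling in T-HCA992 and TCi-HCA984. The Mki67 RNA of T-HCA992, the highest of the 4 compared, thus did not match its protein staining.

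Many mitotic genes carry the cell cycle homology region (CHR), TTTGAA, near the start site, where the DREAM and MuvB complexes bind; p21 favors the repressive form of DREAM. Since members of the list differed together between the adenomas, promoters from 250 bases before to 50 after the start (RefSeq, GRCm38.p6) were searched for TTTGAA on both strands. It was in 18 of the 25 genes of the list with a promoter sequence (72.0%), in 14 of the 20 without overlap between the groups and in 4 of the 5 with overlap. Of all 11191 tested genes with a promoter sequence, 1657 (14.8%) held it, as did 5878 of all 32851 promoters (17.9%) and 3 of 19 S phase genes. The list was made of known mitotic genes, so its high share of the motif describes the list and not these tumors. Within the list the share was 70% in genes without overlap and 80% in the few with overlap. T-HCA992 was highest in 29 of the 30 genes and TCi-HCA984 lowest in all 30, so genes with overlap differed between the adenomas too. The split therefore cannot tell whether the motif went with the difference. The match describes the letters and does not show binding. The motif is in capitals in the windows of 30 bases below, each given in the strand of the motif, for 3 genes with a low p and for Cdc20 and Cdk1, 2 textbook targets; Aurka, Ect2, Cdc20 and Cdk1 are read from the minus strand and Plk1 from the plus strand.
Aurka, chr2:172370521-172370550: aaaaggagaaccTTTGAAttgtaacggctg
Plk1, chr7:122159453-122159482: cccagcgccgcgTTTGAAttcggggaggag
Ect2, chr3:27153822-27153851: cgactggattttTTTGAAtcggaggcggca
Cdc20, chr4:118437344-118437373: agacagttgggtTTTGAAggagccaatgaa
Cdk1, chr10:69352910-69352939: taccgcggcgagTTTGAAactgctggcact

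S phase genes also placed the adenomas at the ends, with less separation. Of 22 genes, 9 were higher without overlap and none lower, against 18.4% and 16.0% of all genes tested. T-HCA992 was the highest for 21 and TCi-HCA984 the lowest for 16. The median log2 difference was -0.27 in the carcinoma pair and 1.36 in the adenoma pair. Rrm2, a subunit of ribonucleotide reductase, was at 15.9, 60.3, 10.5 and 3.58 CPM (2.44, edgeR adjusted p = 0.387; DESeq2 adjusted p = 0.0263), and Mcm7, of the replicative helicase, at 18.8, 25.8, 12.7 and 10.4 CPM (0.95, edgeR adjusted p = 0.403). Of 16 genes of G1 control, 6 were higher and 2 lower. E2f2 was at 5.56, 13.7, 3.75 and 1.31 CPM. Cdkn1c, the kinase inhibitor p57, was among the lower ones, at 0.378, 1.86, 6.27 and 7.04 CPM.

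**Figure D3:**
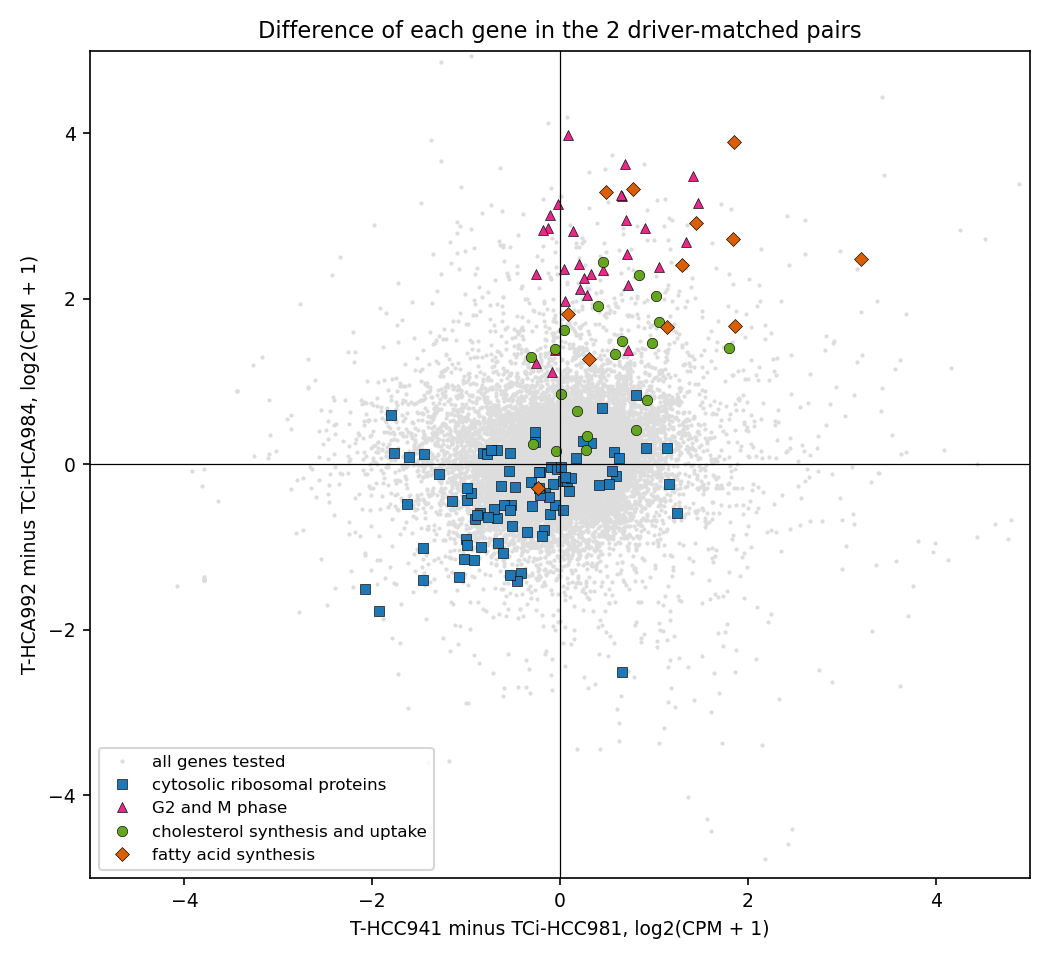
Each point is 1 tested gene, with the log2(CPM + 1) difference between the carcinomas (T-HCC941 minus TCi-HCC981) on the horizontal axis and between the adenomas (T-HCA992 minus TCi-HCA984) on the vertical axis; members of 4 lists are colored, and 25 of 15182 genes lie outside the frame. G2 and M genes are spread upwards near 0 on the horizontal axis, fatty acid genes lie mostly in the upper right, and many ribosomal protein genes lie to the lower left.

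Telomerase components other than Tert were partly higher in the p21+/Tert tumors. Of 12 genes of telomerase and its assembly, 6 were higher in both without overlap and none lower, against 18.4% and 16.0% of all genes tested. An unadjusted edgeR p under 0.05 was found for 4. Gar1, a protein of the H/ACA particles that hold Terc, was at 10.7, 13.7, 4.06 and 3.52 CPM (1.68, SE 0.36; edgeR adjusted p = 0.316; DESeq2 adjusted p = 0.00369). Its livers had 8.27, 9.02, 3.65 and 4.31 CPM, a like separation. Nhp2, of the same particle, was at 46.4, 32.8, 23.7 and 17.0 CPM (0.96, edgeR adjusted p = 0.387), and Dkc1, dyskerin, at 15.1, 17.6, 11.2 and 9.83 CPM (0.63, edgeR adjusted p = 0.603). Terc, the template RNA, was at 1.19, 1.22, 0.103 and 0.398 CPM (2.25, edgeR adjusted p = 0.535); it was near the limit of detection in the p21+/TertCi tumors, it has no regular poly(A) tail, and the libraries were made from poly(A) RNA. Over the 12 genes the median log2 difference was 0.19 and ran from 0.08 to 0.62 without any 1 tumor. In the livers 5 of the 12 were higher without overlap (against 14.0% of all genes tested), so the separation was partly shared with liver. Nhp2 was at 39.7, 28.4, 20.6 and 26.3 CPM there and Dkc1 at 11.8, 17.4, 7.44 and 8.14 CPM. H/ACA particles also modify ribosomal RNA. Nop56, a protein of the related C/D particles that is listed with Myc and its targets, was at 31.4, 29.4, 15.7 and 16.0 CPM (0.94, edgeR adjusted p = 0.338). In the Myc list 9 of 19 were higher and 1 lower.

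Telomere capping genes showed no common direction. Of 20, 6 were higher and 3 lower without overlap (against 18.4% and 16.0% of all genes tested), with a median of 0.00. Pif1, a helicase that removes telomerase from chromosome ends, was at 5.34, 4.26, 0.462 and 0.170 CPM (3.89, edgeR adjusted p = 0.387). The 2 Ctnnb1-mutated p21+/Tert tumors had it at 5.45 and 6.09 CPM. Ten1, of the CST complex that ends telomere extension, was at 12.1, 5.70, 2.36 and 2.27 CPM (1.94, edgeR adjusted p = 0.387) but overlaps another gene. Pot1a, of shelterin, was lower, at 2.54, 4.23, 4.88 and 6.47 CPM.

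Lists of damage and senescence held shares without overlap not far from those of all genes (18.4% higher and 16.0% lower). p53 targets had 4 of 18 higher and 1 lower (median 0.13), and DNA damage response genes 5 of 21 higher and 2 lower (0.07). Bbc3, the pro-apoptotic PUMA, was at 25.5, 39.8, 18.0 and 10.9 CPM. Senescence and secretory genes had 4 of 16 lower and none higher, with a median of -0.83, and 11 of the 16 were highest in TCi-HCC981.

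Immune and stress lists were set apart mainly by single tumors. Their counts without overlap stand against 18.4% higher and 16.0% lower of all genes tested. The NF-kB targets had 17 of 18 genes highest in TCi-HCC981, and antigen presentation had 12 of 14, beside the high macrophage markers of that tumor; the part of those cells was not tested. Nrf2 and its targets had 20 of 29 highest in TCi-HCC981, 5 lower with active Tert and 1 higher. Nqo1, a quinone reductase, was at 32.0, 14.8, 225 and 53.3 CPM (-2.57, edgeR adjusted p = 0.387), and Hmox1, heme oxygenase, at 8.91, 18.8, 84.2 and 17.8 CPM, where T-HCA992 and TCi-HCA984 were alike. Interferon-stimulated genes had 22 of 24 lowest in TCi-HCA984. Of these 24, 5 were higher with active Tert without overlap, among them Isg15, at 57.1, 46.7, 28.1 and 6.30 CPM. Acute phase genes had 16 of 18 highest in TCi-HCA984 and 5 lower with active Tert. Fgg, fibrinogen gamma, was at 3201, 3139, 5881 and 9987 CPM. The median of the acute phase list was 0.22 in the carcinoma pair and -1.89 in the adenoma pair, and in the livers it was -0.98.

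Hepatocyte programs were divided by tumor as well. Of 8 pericentral genes none was without overlap; Cyp2e1, a pericentral cytochrome, was at 233, 234, 75.7 and 1872 CPM, with the p21+/Tert tumors between the others. Cyp2f2, a periportal cytochrome, was at 352, 356, 100 and 71.3 CPM (2.04, SE 0.43; edgeR adjusted p = 0.316; DESeq2 adjusted p = 0.000611), and its livers had 550, 1106, 402 and 228 CPM. Hal, a periportal enzyme of histidine breakdown, went the other way at 166, 100, 421 and 264 CPM. In the Ctnnb1-mutated p21+/Tert tumors T-HCC662 and T-HCC663, Cyp2f2 was at 3.38 and 1.93 CPM and Hal at 1.71 and 1.23 CPM. Beta-catenin targets, of interest because no tumor here had a Ctnnb1 mutation, had 2 of 10 lower and none higher, and Glul, glutamine synthetase, was at 140, 152, 150 and 439 CPM. Among oncofetal genes Afp, alpha-fetoprotein, was higher in T-HCC941 and T-HCA992, at 235, 116, 52.9 and 28.9 CPM (2.10, SE 0.50, DESeq2 adjusted p = 0.0145), opposite to Gpc3. Afp was at 11.9 and 12.2 CPM in T-HCC662 and T-HCC663, below both p21+/TertCi tumors, so its higher level was not shared by all tumors with active Tert. Igf2 was at 688, 20.9, 22.3 and 1.08 CPM, high in T-HCC941 alone, while its imprinted neighbor H19 was at 2076, 17.2, 1317 and 7.72 CPM, high in both carcinomas. Of the mutated genes, Egfr was at 162, 610, 199 and 199 CPM and Hras at 68.9, 60.6, 46.0 and 37.8 CPM, so neither was highest in the tumor that carried its mutation. Over all genes tested, 18.4% were higher and 16.0% lower without overlap. Other lists stood at 3 of 16 higher and 5 lower for ERK-responsive genes, 5 of 17 and 1 for glycolysis, 3 of 12 and 0 for the Notch pathway, and 2 of 10 and 0 for the Hedgehog pathway. Lipid droplet genes had 2 of 12 higher and 0 lower, gluconeogenesis and glycogen 1 of 12 and 2, the urea cycle 1 of 6 and 2, oxidant defence and mitochondrial upkeep 3 of 15 and 4, and hepatocyte identity 2 of 15 and 2. The 14 male-biased liver genes had 2 higher and 1 lower, and the 14 female-biased ones 2 and 2.

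The livers of the same 4 mice gave a second view of genotype. No gene was called between the 2 p21+/Tert and the 2 p21+/TertCi livers, and 332 of the genes tested (2.23%) had an unadjusted edgeR p under 0.05. Without a threshold, 2121 (14.0%) were higher without overlap and 1850 (12.2%) lower. The 10 genes named as higher in tumors were all higher in the mean of the p21+/Tert livers as well, and 7 of the 10 named as lower were lower. The same sign in both tissues was found for 60.9% of all genes. It was found for 67.0% of genes higher and 64.9% of genes lower without overlap in tumors. Some of these liver differences were close to 0, as for Sult4a1 (0.01), Rhoc (0.07) and Csn3 (-0.03). The tumor and liver of 1 mouse share its genotype and all else about the animal. In a test of whether the genotype difference was unlike in tumor and liver, in the 8 libraries of these 4 mice, no gene of 14885 passed with edgeR (282, or 1.89%, had an unadjusted p under 0.05, and 4.83% with the mouse as a replicate block). DESeq2 called 10.

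**Figure D4:**
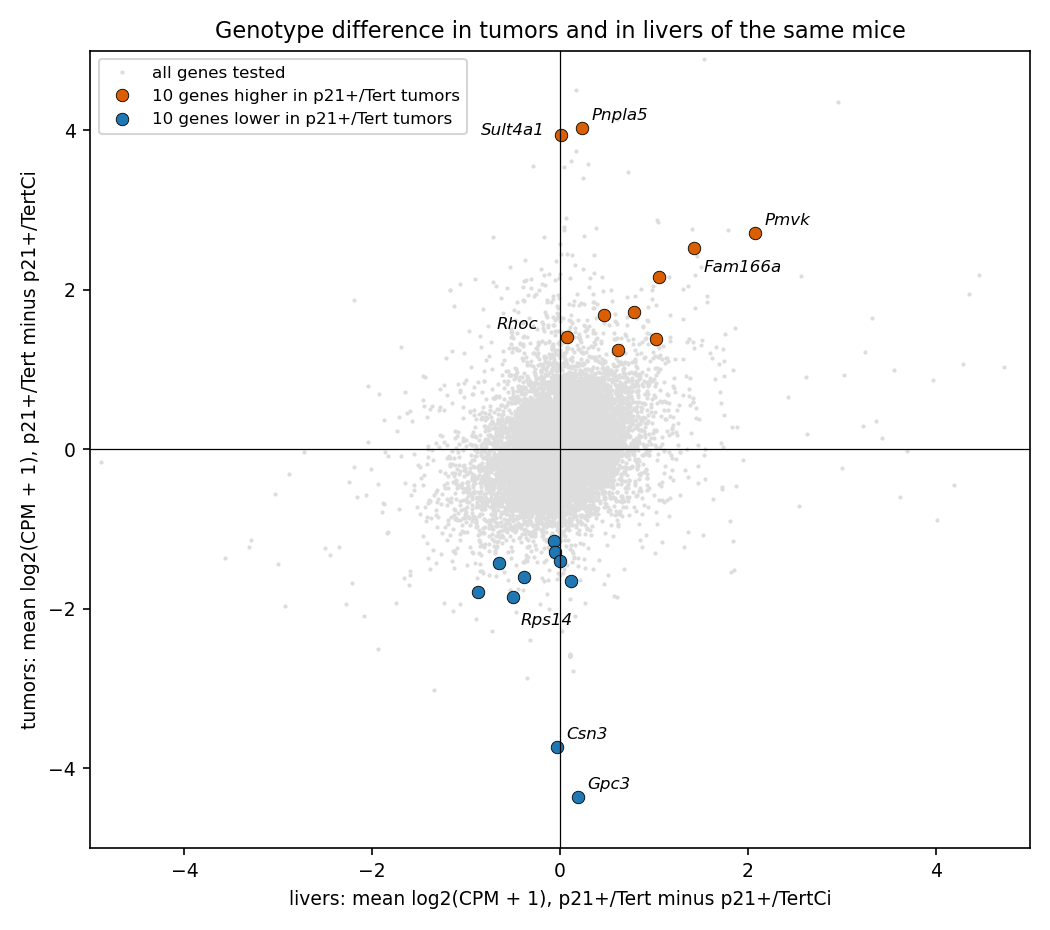
Each point is 1 tested gene. The horizontal axis gives the mean log2(CPM + 1) difference, p21+/Tert minus p21+/TertCi, in the livers. The vertical axis gives it in the tumors of the same mice. Some of the named genes are labeled (Myl6 is not), and 3 genes lie outside the frame. Pmvk and Myl6 are high on both axes, whereas Sult4a1, Pnpla5, Gpc3 and Csn3 differ in tumors and lie near 0 for livers.

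The carcinoma and adenoma pairs, which share no tumor, had the same sign for 8365 of the 15182 genes (55.1%). Between the 2 carcinomas and the 2 adenomas themselves no gene was called, and 1326 (8.73%) had an unadjusted edgeR p under 0.05, beside the 702 and 534 for genotype. Class goes with driver status in these 4 tumors, as both carcinomas carried an Egfr or Hras mutation, and the pair cannot be told apart.

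Because the study reported copy number changes in both carcinomas and none in the adenomas, differences were also read by chromosome. In the carcinoma pair the median log2(CPM + 1) difference ran from -0.36 on chromosome 13 and -0.33 on chromosome 18 to 0.35 on chromosome 5 (SD over chromosomes, X included, 0.187). In the adenoma pair it ran from -0.26 on chromosome 18 to 0.14 on chromosome 19 (SD 0.0954). The liver pairs were flatter, with SDs of 0.0316 and 0.0259. With only genes above a mean of 10 CPM, chromosome 9 was the lowest of the carcinoma pair, at -0.39, and chromosome 18 remained the lowest of the adenoma pair, at -0.35, while 7 and 12 of the medians moved by more than the spread of the liver medians. Chromosome 18, on which Rps14 and Kcnn2 lie, was low with active Tert in both tumor pairs, by much less than these genes were. Chromosome 5, which carries Wbscr25, Pdap1 and Atp5k, was high in the carcinoma pair only. The study reported a gain of this chromosome in both carcinomas of the pair, not in T-HCC941 alone. Differences in tumors also went with base composition, the median fitted log2 difference being -0.24 for genes under 40% GC and 0.19 for genes of 55% GC or more. The part of copy number or base composition in any single gene was not tested.

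**Figure D5:**
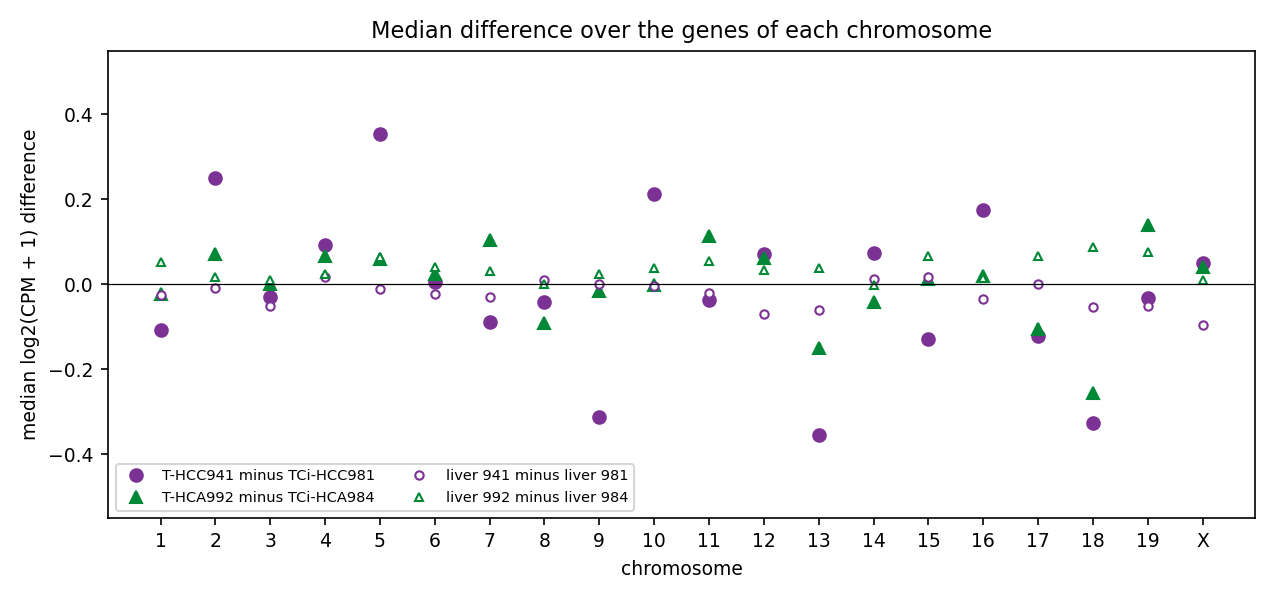
Median log2(CPM + 1) difference, p21+/Tert minus p21+/TertCi, over the tested genes of each chromosome, for the carcinoma pair, the adenoma pair and the 2 liver pairs of the same mice. The carcinoma pair spreads widest, from -0.36 on chromosome 13 to 0.35 on chromosome 5, and both tumor pairs are low on chromosome 18, while the livers stay close to 0.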

How the data were processed

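The authors isolated poly(A) RNA from bulk tissue, made paired-end libraries, and aligned the reads with Subread to mm10 with mCherry added. Gene counts were made with featureCounts 1.6.4. The deposited values are raw counts per gene symbol for each library, with no normalization. The annotation release and strand setting are not given in the sources used here. Symbols were placed on GRCm38 through a GENCODE annotation, 23376 of 24421 by symbol and 651 by synonym.

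Counts were fitted with edgeR 4.0.16 (R 4.3.3; TMM, filterByExpr, quasi-likelihood F test, Benjamini-Hochberg threshold 0.05) in 1 model of 5 groups over all 12 libraries. The Ctnnb1-mutated tumors and the livers enter to estimate the spread. Of these livers, 1 is labelled with another mouse number than its deposited name gives. Beyond the fit it was used only to give its level of a few named genes. The interaction was fitted on tumor and liver of the 4 mice. Each library is 1 mouse tissue sample, and p-values of that model measure spread pooled over all 5 groups, livers and Ctnnb1-mutated tumors included. In the groups compared, the spread is that of a carcinoma against an adenoma. Tumor and liver of 1 mouse were treated as independent in the model of 12 libraries. DESeq2 1.42.0, other scaling, filters, libraries and covariates were alternatives. Tumors and livers of a mouse are paired by animal: their deviations from the group means correlated at r = 0.393 (p21+/Tert) and 0.532 (p21+/TertCi) over 14885 genes. Log2 CPM differences carry a pseudocount of 1. Near-identical genes were found with minimap2 2.31 as matches of at least 150 bases at 95% identity. Near-identical genes and overlapping exons are not given for every gene named here, and Kcnn2 and Nop56 had both. In simulated counts with planted changes, edgeR gave the right direction for most of the largest changes. How many passed the threshold is not reported here, so the power of the comparison is not known from it.

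Named genes were the 10 of lowest p in each direction whose tumors do not overlap, up to 4 of lowest p per list, and Tert, Cdkn1a, Pif1, Ten1, H19, Egfr, Hras, Xist and Ddx3y. Scd1, Fasn, Mki67 and other list members outside that rule were chosen after their values were seen. The tumors compared, the gene lists and the rules were chosen with earlier results of these data known. The other tumors and the wild-type sample of the study were not analysed here. Some genes of the lists are counted but not reported here by name.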

Additional observations from a re-analysis of the deposited data

Results flagged for a closer look

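Of 79 genes examined, 11 moved in opposite directions from liver to tumor in the 2 genotypes, as did 6.65% of all 15182 genes tested (561 up with active Tert and down with inactive Tert, 449 the reverse). The interaction called no gene with edgeR, so these differences did not pass a test. Values are the mean log2(CPM + 1) change from liver to tumor in p21+/Tert mice minus that in p21+/TertCi mice.

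The largest was Kcnn2, at -1.77. It was lower in tumor than in liver by -1.47 and -1.78 in the p21+/Tert mice, and differed by 0.25 and 0.05 in the p21+/TertCi mice. For Rps14 the value was -1.35, from -0.57 and -0.56 in the p21+/Tert mice and 0.76 and 0.80 in the p21+/TertCi mice, so that neither genotype's tumors stood at the level of liver. Eif3e differed by -1.23, from -0.24 and -0.09 against 1.06 and 1.08, with the change mostly on the p21+/TertCi side. Rps25 differed by -0.91.

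Hmox1 differed by -1.39, Eng, an endothelial marker, by -0.85, and Uty, of the Y chromosome, by -0.81. On the positive side, Wbscr25 differed by 1.12, Pdap1 by 0.63, Xist by 0.63 and Mcm7 by 0.57. Xist was at 1.46 CPM or less in the 4 tumors.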

How the results depend on the processing

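With 2 tumors a group and a biological coefficient of variation of 0.409, single-gene calls depended on how spread was estimated. Against 0 genes higher and 1 lower, DESeq2 called 78 and 69, while edgeR called 0 lower in the 4 tumors alone, in the 6 tumors alone and with a term for the mutated carcinomas. RLE scaling and a filter of 1 count left 0 and 1. Leaving out 1 tumor gave 0 to 1 higher (Fam166a without T-HCA992) and 0 lower. The interaction had 0 calls, and 10 with DESeq2; with the mouse as a replicate block it had 0 as well, with 719 genes at an unadjusted p under 0.05 in place of 282. Over 79 genes and 786 gene and setting pairs, 740 kept direction and side of the threshold, 32 passed it newly (31 of them with DESeq2), 7 lost it (all Rps14) and 7 turned sign. The last were Tert with the class term (-0.058) and 6 that turned when 1 tumor was left out, whose ranges over the 4 tumors were -0.30 to 1.61 for Egfr and -0.80 to 0.67 for Tert (lowest without T-HCA992), -5.27 to 7.03 for H19 (lowest without T-HCC941, and -0.33 without TCi-HCA984), -3.04 to 1.63 for Cyp2e1 (highest without TCi-HCA984), and -2.27 to 0.29 for Csf1r (highest without TCi-HCC981). The cause was not tested.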

Other observations

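Sult4a1, Pnpla5 and Pnpla3, all higher in both p21+/Tert tumors, are neighbors within 111.1 kb of chromosome 15 (GRCm38); the group was noticed after the values were seen. Next to them Samm50, a protein of mitochondrial outer membrane assembly, was at 81.6, 96.0, 81.2 and 62.6 CPM, a log2 difference of 0.30. Within 500 kb on either side 12 genes were tested, and of the 9 beside these 3 genes 3 were higher without overlap, 1 of them lying inside Pnpla3; the median log2 difference of the 9 was 0.12. Mpped1 was the nearest tested gene before Sult4a1 but not adjoining, as it ends at 83858494 and Sult4a1 starts at 84076097. Its levels were 15.9, 7.95, 32.7 and 1.76 CPM, and 0 to 0.161 CPM in the livers, so it was present in tumors of both genotypes.

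Genes of the Y chromosome were lowest in the carcinoma T-HCC941. Ddx3y was at 36.3 CPM there and at 66.8, 84.2 and 88.0 in the other 3, while the livers of the 4 mice had 80.7, 60.8, 66 and 88.5 CPM. Uty was at 7.02, 11.8, 21 and 17.5 CPM.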
